A study of Homo sapiens with 6 samples.

Results

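Circular RNAs (circRNAs) of 3 host genes, SMAD2, MECOM and RREB1, were followed in Ishikawa cells, a line grown from a human endometrial carcinoma. A circRNA is a closed RNA circle that forms when splicing links an exon's end to the start of the same or an earlier exon, and reads across this back-splice junction count it. The circRNAs were taken by host gene name. This gave 12 circRNAs (2 of SMAD2, 7 of MECOM and 3 of RREB1) of 4814 in the table, with 152 of 26060 junction reads (0.583%). The libraries were 3 from cells treated with MPA and 3 from control cells with no treatment. Dose, duration and the full name of MPA were absent from the labels, and nothing there told whether the libraries came from separate cultures, so their spread may be technical. The 3 hosts were picked by name with the junction reads of these libraries already known, and the values between MPA and control libraries below are therefore a description, with no test of their own.

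SMAD2 encodes one of the receptor-regulated SMADs, which receptors for TGF-beta and activin phosphorylate and which then join SMAD4 and act on genes in the nucleus. MECOM, the MDS1 and EVI1 complex locus, encodes zinc finger transcription factors; the EVI1 form binds SMAD3 and represses TGF-beta signalling, and the longer MDS1-EVI1 form carries a PR domain. RREB1, the RAS-responsive element binding protein, is a zinc finger factor that acts with SMADs downstream of RAS. circRNA reads do not measure these proteins or their mRNAs, and the linear RNA of the hosts was not analysed here.

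The exons behind each circle were found by matching its genomic span and predicted length to consecutive exons of GENCODE 29 transcripts (GRCh38), without converting coordinates. For 10 of the 12 circRNAs both values matched to the base in the transcript that the authors' annotation names; exon numbers below are those of these transcripts (SMAD2, 11 exons; MECOM in its MDS1-EVI1 form, 16 exons; RREB1, 12 exons). The junctions that set the isoforms apart are shown where both sides are coding: 15 bases before the back-splice in lower case, then in capitals the first 15 bases of the exon it joins back to (GENCODE 29, 5′ to 3′). The first 3 lines of MECOM share their lower-case part and differ in their capitals, and the lines from exon 4 share the capitals.
SMAD2 exons 3 to 6, hsa_circ_0003694, chr18:45391430-45396935, minus strand: aaagtatggacacagCACTTGCTCTGAAAT
MECOM exons 3 to 9, chr3:168830575-168861620, minus strand: ttgtttcacccacaaATCTTAGACGAATTT
MECOM exons 4 to 9, chr3:168830575-168849319, minus strand: ttgtttcacccacaaATATTCTATAGAGTA
MECOM exons 8 to 9, chr3:168830575-168834527, minus strand: ttgtttcacccacaaGTGAGGTCTGCCATA
MECOM exons 4 to 8, chr3:168833171-168849319, minus strand: ggaccctatttacagATATTCTATAGAGTA
MECOM exons 4 to 7, chr3:168838844-168849319, minus strand: tgaagccctttatctATATTCTATAGAGTA
All coordinates are on hg19, as the deposited table gives them, counted from 1.

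Library totals ran from 4339 to 5454 junction reads with MPA and from 3740 to 4316 in control. With the smallest total, 0 reads were still compatible with a share of 0.0802% (3 reads); this limit and the intervals below cover counting error only. The full sequencing depth behind these totals is unknown here, and in bulk RNA fewer cells with a circRNA and less of it per cell cannot be told apart. Of 14 epithelial and endometrial marker genes, 3 had a circRNA, with 8 reads in all: CDH1 (3), PAX8 (3) and EPCAM (2). Of 14 stromal, endothelial and immune markers only FBN1 had one, with 3 reads. A gene with no circRNA says nothing of its mRNA.

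Across the whole table, edgeR called 0 of 91 circRNAs (0%) and 0 of 180 host genes (0%) at an FDR of 0.05, among those averaging 5 or more reads per library. At an unadjusted p under 0.05 there were 1 circRNA and 3 host genes, and DESeq2 called 0 of each. Of the 12 circRNAs only hsa_circ_0001573 of RREB1 passed this filter, and of the host sums MECOM and RREB1. At a mean of 2 or more reads, 6 of the 12 and all 3 hosts were tested, with no filter all 12, and 0 were called each time. What follows is therefore given as reads and shares of all junction reads. As a set, the 12 circRNAs took 0.470%, 0.415% and 0.587% of the reads in MPA libraries 1 to 3 and 0.834%, 0.508% and 0.695% in control libraries 1 to 3, and the ranges overlapped.

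SMAD2 had 1, 4 and 3 reads in MPA libraries 1 to 3, against 7, 5 and 4 in control libraries 1 to 3, over its 2 circRNAs. Every MPA share was below every control share, at 0.0565% ± 0.0349 with MPA and 0.134% ± 0.0277 in control (SD, n = 3 each). The ratio of the pooled shares, MPA over control, was 0.414, with a 95% counting interval of 0.153 to 1.02 that included 1. Among host genes with at least 10 reads, 4.61% had a lower share in every MPA library. Without MPA replicate 2 the log2 ratio was -1.75, and without MPA replicate 1 it was -0.92, against -1.27 with all 6 libraries.

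Most SMAD2 reads (79.2%) came from hsa_circ_0000847, which joins the end of exon 6 back to exon 2 (chromosome 18, 45391430 to 45423180, 783 bases). Exon 2 holds the start codon, so this circle carries 53 bases of 5′ untranslated region and 730 coding bases. The coding bases lie in the part of the gene that encodes the MH1 domain and part of the linker. This circle had 0, 3 and 1 reads in MPA libraries 1 to 3, against 7, 5 and 3 in control libraries 1 to 3. The highest MPA share, 0.0691% in replicate 2, stood just below the lowest control share, 0.0801% in replicate 3. The 2 groups thus did not overlap, although MPA replicate 2 and control replicate 3 each had 3 reads. The pooled share with MPA was 0.221 times that in control (95% counting interval 0.0533 to 0.693). Without MPA replicate 2, which held 3 of the 4 reads, the log2 ratio was -3.66 in place of -2.18, and without MPA replicate 1 it was -1.64.

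The other SMAD2 circle, hsa_circ_0003694, uses the same end of exon 6 but joins it back to exon 3, the 90-base exon that some SMAD2 transcripts skip and that SMAD3 lacks. Its 494 bases are all coding. It had 1, 1 and 2 reads in MPA libraries 1 to 3, against 0, 0 and 1 in control libraries 1 to 3, and the groups overlapped because control replicate 3 lay above MPA replicates 1 and 2 as a share. At the shared end of exon 6, hsa_circ_0000847 took 4 of 8 reads with MPA (50.0%, exact 95% interval 15.7 to 84.3) and 15 of 16 in control (93.8%, 69.8 to 99.8). Its share was 0%, 75% and 33.3% in MPA libraries 1 to 3 and 100%, 100% and 75% in control libraries 1 to 3, and MPA replicate 2 and control replicate 3 were equal. These shares rest on 1 to 4 reads per MPA library.

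**Figure D1:**
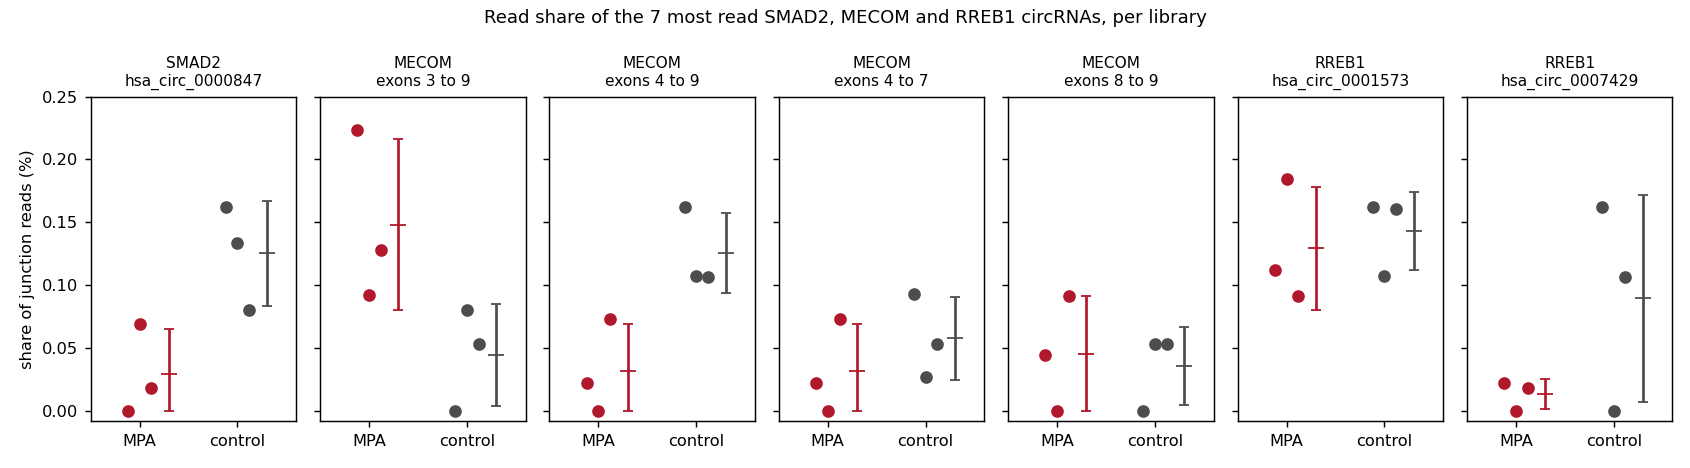
Share of all junction reads (%) of the 7 circRNAs with at least 10 reads, in each of 3 MPA (red) and 3 control (grey) libraries; points are libraries 1 to 3 from left to right, and the bar beside them is the mean ± SD, cut off at 0. The groups do not overlap for hsa_circ_0000847 of SMAD2 and for MECOM exons 3 to 9 and exons 4 to 9.

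MECOM had the most reads of the 3 hosts, 76 over 7 circRNAs, and was one of 43 hosts of the series with 76 or more. Its reads were 14, 6 and 23 in MPA libraries 1 to 3, against 11, 10 and 12 in control libraries 1 to 3. The summed share was 0.291% ± 0.143 with MPA and 0.281% ± 0.0349 in control (SD, n = 3 each), a ratio of 1.08 (95% counting interval 0.669 to 1.75), and the MPA libraries lay on both sides of the control libraries. Without MPA replicate 3 the log2 ratio was -0.30 in place of 0.11. The near-equal sums held isoforms that went opposite ways.

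None of the 7 MECOM circRNAs had a circBase identifier, against 78.9% of the circRNAs of the series. Of these 7, 6 were exonic, with a median length of 2023 bases against 551 for all exonic circRNAs. All 6 used exons of the stretch from exon 3 to a site within the intron that follows exon 9 in the MDS1-EVI1 transcript. From exon 4 on, this stretch encodes zinc fingers of EVI1 and the long region between its finger clusters. The longest of the 6 circles stretched over 7 exons, with 2202 coding bases in the MDS1-EVI1 transcript. The intron before exon 3 is 237354 bases long in GENCODE 29 and the one before exon 4 is 12166 bases, against a median MECOM intron of 3956 bases. In transcripts of the EVI1 form alone, exon 3 lies before the start codon, which is in exon 4.

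The MECOM circle of exons 3 to 9 (chromosome 3, 168830575 to 168861620) had the most reads. It had 10, 4 and 7 reads in MPA libraries 1 to 3, against 0, 3 and 2 in control libraries 1 to 3. Every MPA library was above every control library, with shares of 0.148% ± 0.068 and 0.0445% ± 0.0408 (MPA and control, SD, n = 3 each). The pooled share with MPA was 3.47 times that in control (95% counting interval 1.28 to 11.8). Without control replicate 1, which had no read of it, the log2 ratio was 1.14 in place of 1.80, and without control replicate 2 it was 2.57.

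The circle of exons 4 to 9 (chromosome 3, 168830575 to 168849319, 2067 bases) ends at the same base and lacks only the 135 bases of exon 3. It had 1, 0 and 4 reads in MPA libraries 1 to 3, against 7, 4 and 4 in control libraries 1 to 3. MPA replicate 3 and control replicates 2 and 3 had the same count, but as shares of their totals every MPA library was lower (0.0319% ± 0.0376 and 0.125% ± 0.0319, MPA and control, SD, n = 3 each). The ratio of pooled shares was 0.276 (95% counting interval 0.0784 to 0.798). Without MPA replicate 3 the log2 ratio was -3.48 and without MPA replicate 2 it was -1.34, against -1.86 with all 6 libraries.

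**Figure D2:**
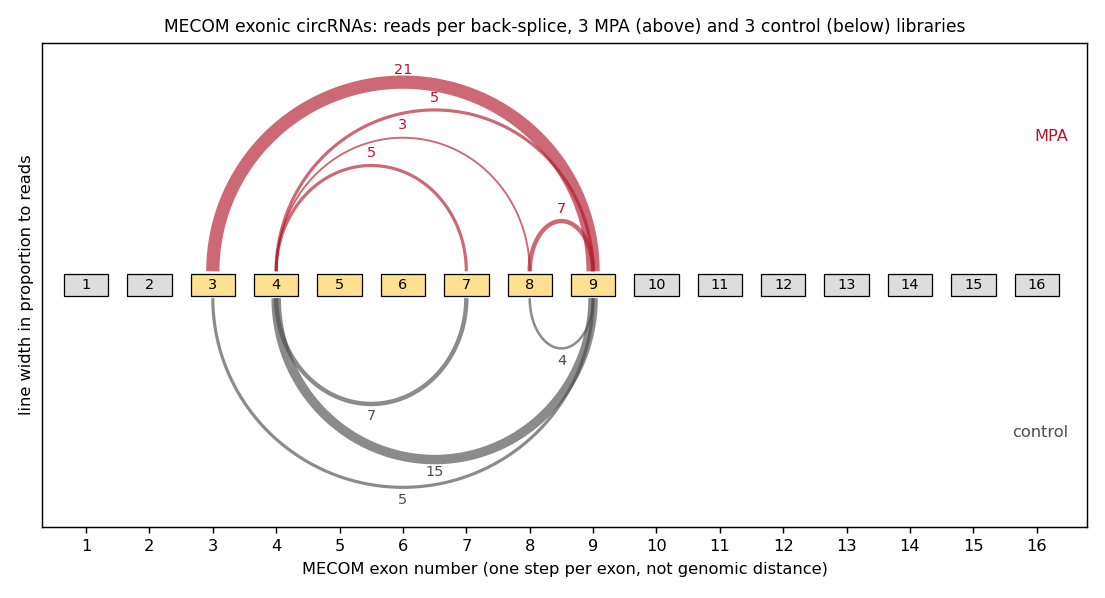
MECOM exons 1 to 16, drawn at equal steps, with an arc for each exonic circRNA between numbered exons from the exon it starts with to the exon it ends with; line width and the number on it give the reads summed over 3 MPA libraries (red, above) and 3 control libraries (grey, below). The widest arc is that of exons 3 to 9 with MPA (21 reads) and that of exons 4 to 9 in control (15 reads).

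Another MECOM circle with the same end, of exons 8 to 9 (chromosome 3, 168830575 to 168834527, 1445 bases), is made of the 1357-base exon 8 and the 88 bases of exon 9. It had 2, 0 and 5 reads in MPA libraries 1 to 3, against 0, 2 and 2 in control libraries 1 to 3, and the groups overlapped (ratio 1.45, 95% counting interval 0.368 to 6.74). The log2 ratio changed sign, to -0.58, without MPA replicate 3 and, to -0.12, without control replicate 1, against 0.53 with all 6 libraries.

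Among the 3 circles that end with exon 9, the one from exon 3 took 21 of 33 reads with MPA (63.6%, exact 95% interval 45.1 to 79.6) and 5 of 24 in control (20.8%, 7.13 to 42.2). Its share was 76.9%, 100% and 43.8% in MPA libraries 1 to 3 and 0%, 33.3% and 25% in control libraries 1 to 3, and the groups did not overlap. These shares rest on 13, 4 and 16 reads at this end in MPA libraries 1 to 3 and on 7, 9 and 8 in control libraries 1 to 3. The one from exon 4 took 15.2% of the reads at this end with MPA and 62.5% in control, also without overlap (7.69%, 0% and 25% with MPA, 100%, 44.4% and 50.0% in control). The shares at one end sum to 100%, so this is not a separate result from that of exons 3 to 9. For the most read isoform, 7.37% of 190 such ends in the series did not overlap. Other isoforms were not counted this way over the series. The one from exon 8 took 21.2% with MPA and 16.7% in control. A share within one host does not depend on the library total.

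Exon 4 was the other shared site of MECOM: 4 circles began with it and ended with exon 9, 8 or 7 or with a 27-base exon that follows exon 9 in other MECOM transcripts. Only 60 of the 1054 back-splice ends shared by circRNAs of a host in the series had 4 or more isoforms. The circle of exons 4 to 7 (chromosome 3, 168838844 to 168849319, 622 bases) had 1, 0 and 4 reads in MPA libraries 1 to 3, against 4, 1 and 2 in control libraries 1 to 3. Its groups overlapped, at a ratio of 0.591 (95% counting interval 0.148 to 2.16), and against a log2 ratio of -0.76 with all 6 libraries it was -2.39 without MPA replicate 3, -0.24 without MPA replicate 2 and -0.19 without control replicate 1. The circle of exons 4 to 8 had 0, 2 and 1 reads in MPA libraries 1 to 3, and the one to the 27-base exon (chromosome 3, 168825714 to 168849319, 2094 bases) had 2 reads in MPA replicate 3. Neither was read in control.

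Of the reads at the start of exon 4, the circle of exons 4 to 9 took 5 of 15 with MPA (33.3%, exact 95% interval 11.8 to 61.6) and 15 of 22 in control (68.2%, 45.1 to 86.1). The library shares were 50.0%, 0% and 36.4% with MPA and 63.6%, 80% and 66.7% in control, with no overlap. They rest on 2, 2 and 11 reads at this end in MPA libraries 1 to 3. Control libraries 1 to 3 had 11, 5 and 6. With 2 reads, 1 read more or less moves a share widely, so the lack of overlap is weak. Counted among the 2 most read circles of this end alone, a choice made after seeing the data, the difference was -18.2 percentage points in place of -34.8. The circle of exons 4 to 7 took 33.3% with MPA and 31.8% in control. The shares at the start of exon 4 are not a separate result from those at the end of exon 9. Both use the reads of exons 4 to 9. The last MECOM entry was intronic (chromosome 3, 169098975 to 169153557) and had 2 reads in control replicate 3 and none elsewhere; it could not be matched to exons.

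**Figure D3:**
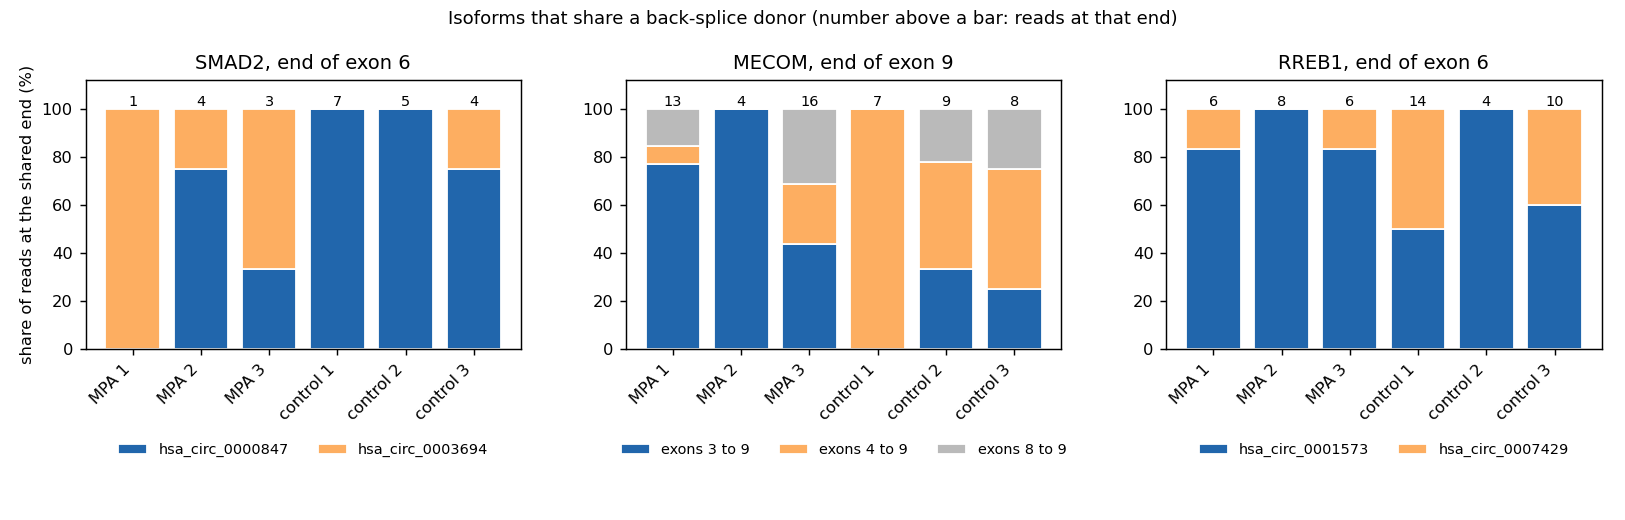
Share (%) of each isoform among the reads at the back-splice donor that isoforms of a host share, per library, MPA 1 to 3 and then control 1 to 3; numbers above the bars are the reads at that end. At the end of MECOM exon 9 the circle of exons 3 to 9 (blue) takes 43.8% to 100% in MPA and 0% to 33.3% in control libraries.

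RREB1 had 6, 8 and 6 reads in MPA libraries 1 to 3, against 18, 4 and 10 in control libraries 1 to 3, over 3 circRNAs. The summed share was 0.143% ± 0.0379 with MPA and 0.264% ± 0.155 in control (SD, n = 3 each), and the groups overlapped because control replicate 2 was lowest of all. The ratio of pooled shares was 0.517 (95% counting interval 0.280 to 0.932). Without control replicate 1 the log2 ratio was -0.42 in place of -0.95, and without control replicate 2 it was -1.31. The most read RREB1 circle had 4 to 8 reads in every library, and the rest of the range in control came from the other 2 circles.

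hsa_circ_0001573 joins the end of exon 6 back to exon 2 (chromosome 6, 7176888 to 7189555, plus strand, 709 bases, of which 425 are coding). It was the only one of the 12 circRNAs read in all 6 libraries, and it held 67.3% of RREB1 reads. It had 5, 8 and 5 reads in MPA libraries 1 to 3, against 7, 4 and 6 in control libraries 1 to 3. The shares were 0.129% ± 0.0487 with MPA and 0.143% ± 0.0314 in control (SD, n = 3 each), a ratio of 0.876 (95% counting interval 0.426 to 1.81). In edgeR over all circRNAs its log2 fold change was -0.07. Without MPA replicate 3 the log2 ratio of shares was 0.03 in place of -0.19.

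hsa_circ_0007429 ends at the same base of exon 6 and begins with exon 3 (chromosome 6, 7181357 to 7189555, 590 bases, 425 of them coding). It had 1, 0 and 1 reads in MPA libraries 1 to 3, against 7, 0 and 4 in control libraries 1 to 3. Control replicate 2, with none, overlapped the MPA libraries, and the ratio of pooled shares was 0.150 (95% counting interval 0.0162 to 0.689). Without control replicate 1 the log2 ratio was -1.93 in place of -2.73, without control replicate 2 it was -3.28, and as a mean over same-numbered libraries, with 0.5 reads added, it was -1.57. The remaining RREB1 circle, of exons 3 to 5 (chromosome 6, 7181357 to 7187756, 426 bases), had 4 reads, all in control replicate 1.

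At the shared end of RREB1 exon 6, hsa_circ_0001573 took 18 of 20 reads with MPA (90.0%, exact 95% interval 68.3 to 98.8) and 17 of 28 in control (60.7%, 40.6 to 78.5). The library shares were 83.3%, 100% and 83.3% with MPA and 50.0%, 100% and 60.0% in control, so control replicate 2 lay among or above the MPA libraries. At the shared start of exon 3, hsa_circ_0007429 took 2 of 2 reads with MPA and 11 of 15 in control (73.3%), and without control replicate 1 the 2 groups were both at 100%.

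**Figure D4:**
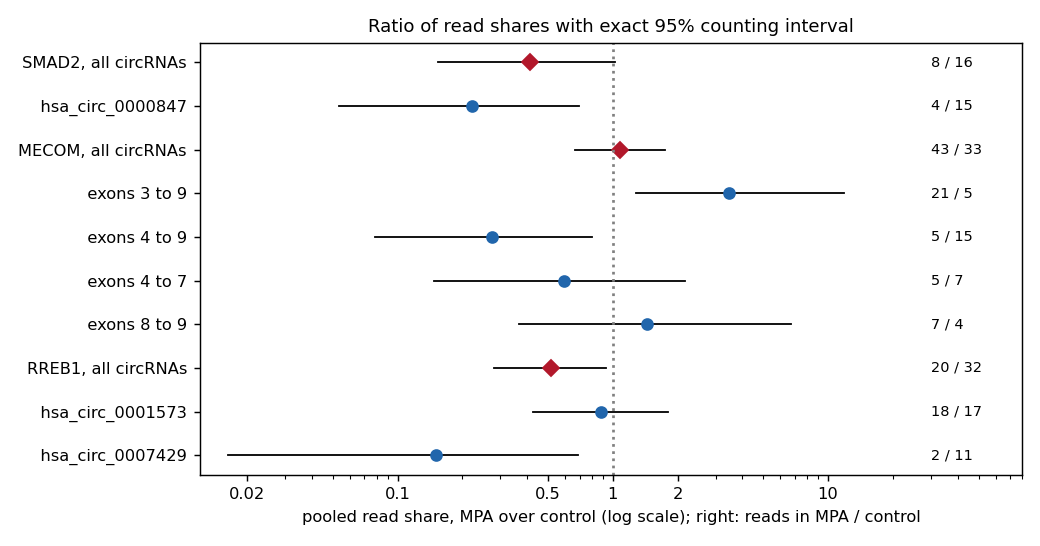
Pooled read share with MPA over that in control (log scale, dotted line at 1) for the 3 host sums (red diamonds) and the 7 circRNAs with at least 10 reads (blue points), with exact 95% counting intervals that do not include the spread between libraries; reads in MPA / control stand at the right. The MECOM sum is at 1.08 while its circles of exons 3 to 9 and 4 to 9 are at 3.47 and 0.276.

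Of the 7 circRNAs with at least 10 reads, 5 had a lower and 2 a higher pooled share with MPA, and 3 had groups that did not overlap (2 lower, 1 higher). Their median ratio was 0.591, against 0.993 for the 515 circRNAs of the series with at least 10 reads, of which 9.32% did not overlap in either direction (5.44% lower and 3.88% higher). Of the 5 shared ends of the 3 hosts, 4 had at least 20 reads and a read in every library. The share of the most read isoform did not overlap between groups at 2 of them, both of MECOM, against 7.37% of 190 such ends in the series. The 2 MECOM ends are not separate results, since both use the reads of exons 4 to 9. At the start of MECOM exon 4, MPA replicates 1 and 2 had only 2 reads each. Of the 12 circRNAs, 11 shared a back-splice end with another circle of their host, against 43.5% of the circRNAs of the series. Since the hosts were chosen with these reads and shared ends known, nothing is read from the differences between these figures. The most read circle of each host began at exon 2 or 3, after an intron of 33551 bases in SMAD2, 237354 in MECOM and 68594 in RREB1, against median introns of 2932, 3956 and 4350 bases in these transcripts. In SMAD2 and RREB1 this is the longest intron of the transcript, and any circle from exon 2 follows it. Other circles of these hosts began after shorter introns. These had 4350 bases for both RREB1 circles from exon 3 and 4316 for MECOM exons 8 to 9. They had 12166 for the MECOM circles from exon 4 and 25956 for hsa_circ_0003694 of SMAD2. Intron lengths were not set against those of the series, and nothing is read from them.

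The host genes whose reads were most like each of the 3 over the 6 libraries were found by the root mean square difference of log2 reads (scaled to the mean total, with 1 read added) among 565 hosts. For SMAD2 they were RP11-632K20.7 (0.25 on the log2 scale), the phosphatase regulatory subunit gene PPP4R1 (0.43) and the zinc finger gene ZNF730 (0.46). For MECOM they were HP1BP3, which encodes a heterochromatin protein 1 binding protein (0.27), KLHL8 (0.38) and RHOBTB3 (0.45). For RREB1 they were the sorting nexin gene SNX13 (0.40), PPP1R13B (0.46) and the kinase gene MAP3K4 (0.52). RP11-632K20.7, the nearest to SMAD2, had 1, 4 and 2 reads in MPA libraries 1 to 3, against 6, 4 and 3 in control libraries 1 to 3.

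circRNAs of other TGF-beta and SMAD signalling genes were counted in the same way. Of 99 genes in 6 lists by role, the 3 hosts included, 27 had circRNAs, with 58 circRNAs and 342 reads, and 2 host sums were tested in edgeR with 0 called. None of 17 ligand and latent complex genes had one. Of 13 receptors 3 did: ACVR2A, an activin type II receptor, with 1, 6 and 7 reads in MPA libraries 1 to 3 and 2, 3 and 9 in control libraries 1 to 3, and the BMP receptors BMPR1B and BMPR2 with 4 and 2 reads in all. Of 8 SMADs the only other host was SMAD4, the common partner, with 0, 2 and 2 reads with MPA and 2, 1 and 1 in control. No circRNA of the inhibitory SMADs was listed.

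Among 17 adaptors, ubiquitin regulators and phosphatases 7 had circRNAs. TRIM33, a ubiquitin ligase that binds SMAD2 and SMAD3 and acts on SMAD4, had 0, 3 and 2 reads in MPA libraries 1 to 3, against 6, 4 and 2 in control libraries 1 to 3. The ubiquitin ligase gene ITCH, the other of this list with at least 10 reads, had 5, 0 and 7 reads with MPA and 2, 0 and 2 in control. The ratios of pooled shares were 0.345 for TRIM33 and 2.48 for ITCH, and in both the groups overlapped. Of 30 nuclear cofactors 14 had circRNAs. After MECOM and RREB1 the most read were EP300, a histone acetyltransferase and SMAD coactivator, with 2, 3 and 2 reads with MPA and 4, 6 and 2 in control, and the SMAD corepressor gene SKIL with 3, 4 and 2 against 3, 2 and 0. Of 14 kinases and target genes only TAB2, a partner of the kinase TAK1, had circRNAs, with 7 reads. Of the 8 genes in these lists with at least 10 reads, SMAD2 was the only one whose groups did not overlap, against 9.22% of all such host genes. Below 10 reads, the nuclear cofactor gene CTBP2 did not overlap either, in the other direction. It had 3, 3 and 1 reads in MPA libraries 1 to 3 and 0 in each control library. Host genes below 10 reads were not counted this way over the series.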

How the data were processed

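Per the file headers, the deposited values are raw, whole-number junction read counts for each circRNA in each library, not normalized by the authors; 6 further per-library columns of log CPM values were not used. CASAVA 1.8, BWA and the build hg19 are listed, without their roles, per the submitters' processing notes; no source used here names the circRNA caller. Host names, classes, lengths and circBase identifiers are the authors' annotation. Predicted lengths assume that every exon between the ends is kept, which junction reads do not show. Counts of the whole table, per circRNA and summed per host gene (10 circRNAs without a host name, 0.0806% of reads, left out), were compared with edgeR 4.0.16 in R 4.3.3 (TMM, group term, robust quasi-likelihood test, Benjamini-Hochberg FDR 0.05, mean of at least 5 reads), checked on simulated data; DESeq2 1.42.0 was the other test. No library was a copy of another of its group: each pair differed beyond sampling error (chi-square p at most 0.00581). Shares, pooled ratios with exact binomial 95% intervals and isoform shares were computed in Python 3.11.15 (scipy 1.17.1). Every member is accounted for, those with at least 10 reads in every library. The 3 host genes most alike per host and up to 4 per role list are named, with CTBP2 named beside them. Members, lists and rules were chosen with earlier results of these data known.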

Additional observations from a re-analysis of the deposited data

How the results depend on the processing

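The 0 circRNA calls and 0 host gene calls were also obtained with RLE size factors, library totals alone, a mean of at least 2 reads, no filter, DESeq2 and the replicate block. With each library left out in turn both counts ran from 0 to 1, the 1 being a call without control replicate 2 in a host, RAB3IP, that is none of the 3. Whether same-numbered libraries pair was not settled: the correlations of their deviations from the group means were -0.0742, 0.157 and 0.325 for numbers 1 to 3. Those between MPA and control libraries of unlike number ran from -0.284 to 0.106. Of 137 alternatives for 15 values of the 3 hosts, 4 moved a value by more than the spread between libraries, all of them a library left out, 5 changed a sign and 1 made a difference 0; restricting an end to its 2 most read isoforms, added after seeing the data, gave differences of 55.8 for MECOM exons 3 to 9 and -18.2 for exons 4 to 9 (percentage points, against 42.8 and -34.8). With libraries left out, the log2 ratio of shares ran from -1.75 to -0.92 for SMAD2, from -0.30 to 0.42 for MECOM and from -1.31 to -0.42 for RREB1; as a mean over the replicate block the MECOM ratio was -0.08 in place of 0.11 and that of hsa_circ_0007429 -1.57 in place of -2.73. The difference in isoform share (MPA minus control, percentage points) ran from 34.2 to 61.5 for MECOM exons 3 to 9 and from -43.2 to -29.7 for exons 4 to 9, from -68.8 to -33.8 for hsa_circ_0000847, from 18.6 to 35.8 for hsa_circ_0001573, and from 0 to 36.4 for hsa_circ_0007429 at its start. TMM totals moved every log2 ratio by 0.11. Single circRNAs of the 3 hosts had 0 to 10 reads per library, which limits these values.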
